A study of Mus musculus with 9 samples.

Results

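The genes described here are 10 members of the BCL2 family of survival and death genes, *Mcl1*, *Bcl2*, *Bcl2l1*, *Bcl2a1a*, *Bcl2a1b*, *Bcl2a1d*, *Bax*, *Bcl2l11*, *Bbc3*, and *Pmaip1*. They were taken by symbol from the 50559 genes in the count files, and all 10 were found and passed the filter on low counts that left 16618 genes for testing. RNA was sequenced from CD45+CD11b+ myeloid cells sorted from the quadriceps of *mdx* mice, which lack dystrophin and are used as a model of Duchenne muscular dystrophy. Every group, controls included, was of the *mdx* strain and 4.5 weeks of age, and was treated for 7 days with vehicle, with spironolactone, a mineralocorticoid receptor antagonist, or with prednisolone, a glucocorticoid receptor agonist. There were 3 libraries per group, 9 in all, each from cells pooled from 3 mice, with both sexes in each group. The muscles were digested with collagenase before the sort, and live and dead cells were not told apart in it. The study set these drugs side by side for their effects on the immune cells of dystrophic muscle, and here each drug is compared with vehicle and the drugs with each other.

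Proteins of the BCL2 family decide whether the outer membrane of the mitochondrion is opened, which releases cytochrome c and starts the caspase cascade. Anti-apoptotic members (MCL1, BCL2, BCL-xL from *Bcl2l1*, and the BFL1 proteins from the *Bcl2a1* copies) hold back the pore-forming effectors BAX and BAK, and BH3-only members (BIM from *Bcl2l11*, PUMA from *Bbc3*, and NOXA from *Pmaip1*) bind the anti-apoptotic proteins and free the effectors. MCL1 and BFL1 are known for keeping myeloid cells alive, MCL1 protein turns over quickly, and NOXA is known chiefly as a partner of these proteins.

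The feature that ties these proteins together is the BH3 helix, so the codons of its core are shown for the members in which they were found. The pattern searched in each translated coding sequence was leucine, any 3 residues, glycine or alanine, then aspartate, and capitals mark the codons of the leucine, of the glycine or alanine, and of the aspartate. All were read 5′ to 3′ on the gene's own strand from GRCm39 with GENCODE vM39.
Mcl1 (chr3:95566747-95566764, plus strand): CTGcggcgcgtgGGCGAC
Bcl2 (chr1:106640314-106640331, minus strand): CTCcgccgggctGGGGAT
Bcl2l1 (chr2:152671626-152671643, minus strand): CTGagagaggcaGGCGAT
Bcl2l11 (chr2:127989070-127989087, plus strand): CTGcggcggatcGGAGAC
Bax (chr7:45115430-45115447, minus strand): CTCcggcgaattGGAGAT
Bbc3 (chr7:16047698-16047715, plus strand): CTGcggcggatgGCGGAC

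Each of these 6 coding sequences held the pattern 1 time, and each stretch lay within 1 coding exon. The pattern was found 2 times in *Pmaip1*, the first beginning at residue 27 of 103, and its codons are not printed. It was found 0 times in *Bcl2a1a*, *Bcl2a1b*, and *Bcl2a1d*, which says only that these letters are not in their coding sequences.

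The libraries held between 31469815 and 32943512 counts on genes, and levels are given as CPM, counts scaled to a common library size after TMM normalization. The myeloid label was checked against its markers. *Ptprc*, which encodes CD45, was at 545 to 660 CPM, *Itgam*, which encodes CD11b, at 978 to 1486 CPM, and the macrophage marker *Adgre1* at 617 to 733 CPM over the 9 libraries. The T cell marker *Cd3e* did not exceed 0.76 CPM in any library, while *Cd4*, which some myeloid cells also express, was at 9.96 to 30.2 CPM. Markers of other cells were at higher levels, with the 6 fibro-adipogenic markers summing to 497 to 948 CPM over the libraries. The source of this RNA was not tested. Neutrophil content was uneven, with 10 neutrophil markers summing to 756, 1010, and 4813 CPM in the 3 vehicle libraries. In bulk RNA of this kind, fewer cells of a type and less RNA per cell cannot be told apart. Because each library was a pool, *P* values measure the spread between pools.

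To compare levels between genes, counts were also scaled by the summed length of each gene's annotated exons to TPM, a per-length share of the library's transcripts. *Mcl1* was by far the highest member, with 1290.0 ± 18.4 TPM (SD, *n* = 3) in vehicle. It was followed by *Bcl2a1b* at 417 ± 37.3 TPM, and then by the effector *Bax* at 221 ± 29.0 TPM. *Bcl2l1* was at 112 ± 5.21 TPM, above *Bcl2a1d* at 90.6 ± 14.97 TPM and *Pmaip1* at 74.6 ± 1.25 TPM.

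On this scale the lower end of the order held *Bcl2a1a* at 41.9 ± 4.97 TPM and *Bcl2l11* at 41.6 ± 5.45 TPM. *Bbc3* was at 16.4 ± 3.27 TPM in vehicle. *Bcl2*, the founding member of the family, was the lowest at 5.25 ± 0.529 TPM. Neighbours in this order had separate vehicle libraries except for *Bcl2a1d* and *Pmaip1*, whose ranges were 73.3 to 99.3 and 73.2 to 75.7 TPM, and *Bcl2a1a* and *Bcl2l11*, whose ranges were 36.3 to 45.6 and 36.2 to 47.1 TPM. The TPM levels thus spanned from *Mcl1* down to *Bcl2* in every group, with *Bcl2* at 5.06 ± 1.48 TPM under spironolactone and 6.33 ± 0.263 TPM under prednisolone. *Bcl2a1b*, *Bax*, and *Bcl2l1* took the next places in all 3 groups on this scale. The order depended in part on the length used, since the summed exons of *Bax* and *Bcl2l11* have 1856 and 10112 bases and their canonical transcripts 976 and 5046. Scaled by canonical transcript length, an alternative added after seeing the data, *Bax* at 240.2 ± 30.8 TPM and *Bcl2a1b* at 238.7 ± 22.1 TPM overlapped in vehicle, with *Bax* the higher of them in prednisolone as well. *Bcl2l11* then stood at 47.7 ± 6.36 TPM, with vehicle libraries that overlapped with those of *Bcl2a1d* and *Pmaip1* and lay above those of *Bcl2a1a* at 23.99 ± 2.77 TPM. *Mcl1* was highest and *Bcl2* lowest with either length.

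**Figure D1:**
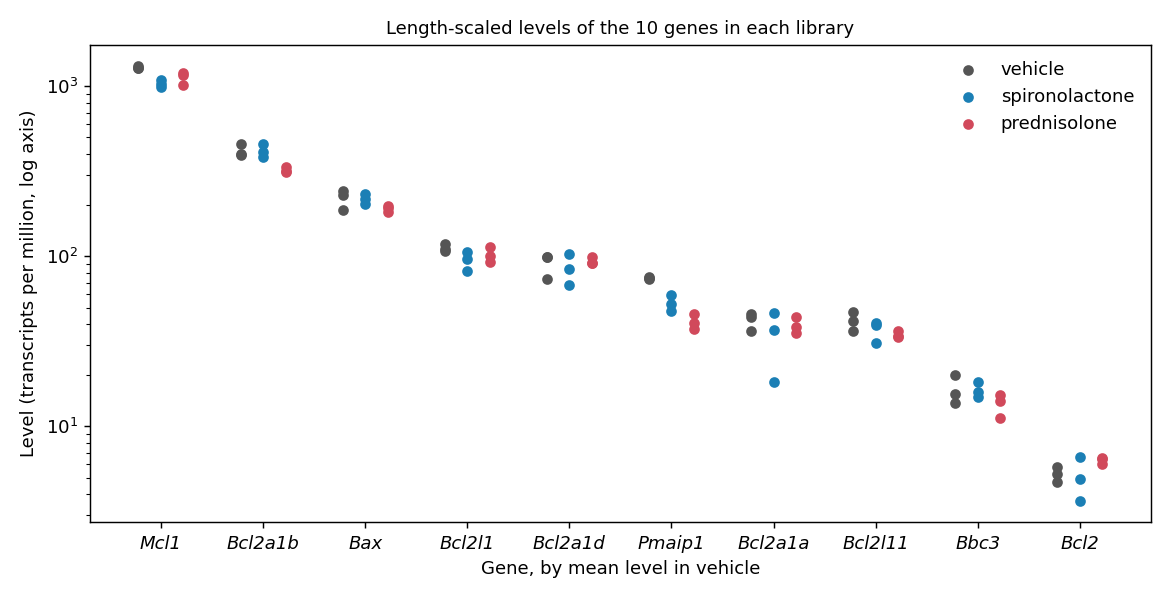
TPM of the 10 genes in each of the 9 libraries on a log axis, ordered by mean level in vehicle, scaled by summed exon length, with 1 point per library colored by group. *Mcl1* lies near 1290.0 TPM and *Bcl2* near 5.25 TPM in vehicle, and the *Pmaip1* points of the 3 groups do not overlap.

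Prednisolone lowered 2 of the 10 members, *Pmaip1* and *Bcl2a1b*, at an adjusted *P* under 0.05 in edgeR's quasi-likelihood test (Benjamini-Hochberg adjustment across the 16618 genes), where 1.76% of all genes were called. No member rose. At an unadjusted *P* under 0.05, 6 of the 10 were lower with prednisolone and 0 were higher, beside 14.2% of all genes called in either direction. The libraries did not overlap with vehicle for 6 members in CPM, 5 below it and *Bcl2* above it, against 19.7% of all genes. The median log2 fold change of the 10 members was -0.29, beside -0.01 over all genes tested. Markers of other cells also moved with prednisolone. The 7 dendritic cell markers summed to 578 to 741 CPM against 386 to 410.0 CPM in vehicle. *Itgax*, which made up most of that sum, was called (adjusted *P* = 0.0197). Of these 7 markers, 5 had higher values, 4 of them at an unadjusted *P* under 0.05, and 2 had lower ones. The 7 skeletal muscle markers summed to 297.5 to 466 CPM against 188 to 287 CPM, with *Myh1* called (adjusted *P* = 0.0239). Of these 7, 6 had higher values and 1 a lower one. The part of such cells in the changes of the members was not tested.

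Spironolactone changed 0 of the 10 members against vehicle at an adjusted *P* under 0.05, where 0.0181% of all genes, or 3 genes, were called by edgeR. At an unadjusted *P* under 0.05, *Pmaip1*, *Mcl1*, and *Bcl2l1* were lower, 3 of 10 beside 9.29% of all genes. These same 3 members had every spironolactone library below every vehicle library, beside 13.5% of all genes without overlap. DESeq2 called 2 members, *Pmaip1* and *Mcl1*, among 293 genes in all, and limma-voom called 0. The median log2 fold change of the 10 was -0.12, beside 0.00 over all genes tested. The skeletal muscle markers summed to 356 to 586 CPM with spironolactone and the 6 endothelial markers to 108 to 168 CPM, against 188 to 287 and 49.1 to 85.3 CPM in vehicle, and the 10 lymphocyte markers to 29.7 to 37.1 against 20.5 to 24.4 CPM. *Cd4*, which some myeloid cells also express, made up most of the lymphocyte sums (means of 25.58 and 17.58 CPM). Of the 9 lymphocyte markers tested, 8 had higher values with spironolactone. The fibro-adipogenic markers were at 652 to 948 CPM against 497 to 687 CPM, with 6 of 6 higher and 4 at an unadjusted *P* under 0.05. Of the 7 dendritic cell markers, 6 had higher values and 1 a lower one. *Flt3*, *Cd209a*, and *Xcr1* were higher at an unadjusted *P* under 0.05 in edgeR. Their list summed to 341 to 525 CPM against 386 to 410 CPM in vehicle, with overlap. The part of these cells in the members' values was not tested.

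The drugs differed directly in 2 of the 10 members, again *Pmaip1* and *Bcl2a1b*, which were both higher with spironolactone than with prednisolone, where 5.17% of all genes were called. Neither call held without spironolactone replicate 3 or without any single prednisolone library (adjusted *P* from 0.0597 to 0.0698 for *Bcl2a1b*, and up to 0.173 for *Pmaip1*). The *Bcl2a1b* call also ended when its near-identical copies were summed (0.33, adjusted *P* = 0.0772), and that of *Pmaip1* with limma-voom (adjusted *P* = 0.0550). At an unadjusted *P* under 0.05 these were joined by *Bax* and *Bbc3*, 4 of 10 beside 22.5% of all genes. The same 4 members did not overlap between the drugs in CPM, beside 30.3% of all genes. Markers of other cells also differed between the drugs. The 6 endothelial markers summed to 108 to 168 CPM with spironolactone and 62.3 to 86.4 CPM with prednisolone, the 10 lymphocyte markers to 29.7 to 37.1 and 14.5 to 21.5 CPM, and the 10 neutrophil markers to 1352 to 3591 and 749 to 968 CPM. *Cd4* made up most of the lymphocyte sums (means of 25.58 and 11.95 CPM), and 8 of the 9 lymphocyte markers tested had higher values with spironolactone. The 6 monocyte markers summed to 1494 to 1761 CPM with spironolactone and 2065 to 2805 CPM with prednisolone, but 3 of the 6 had higher values with spironolactone and 3 lower ones, and the sum followed *Chil3* (means of 431.8 and 1141 CPM) and *Vcan* (211.6 and 487.2 CPM). The 7 dendritic cell markers summed to 341 to 525 and 578 to 741 CPM, which likewise followed 1 gene, *Itgax* (means of 355.8 and 568.8 CPM, log2 fold change -0.68, adjusted *P* = 0.0238), while 4 of the 7 had higher values with spironolactone. The sort marker *Itgam* was lower with spironolactone (log2 fold change -0.43, adjusted *P* = 0.0353). Their part in the members' differences was not tested. The shares of members at these looser limits are therefore to be read against a background that is itself large. The comparisons of each drug with vehicle share the vehicle libraries, so their values are given side by side below and were not correlated.

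**Figure D2:**
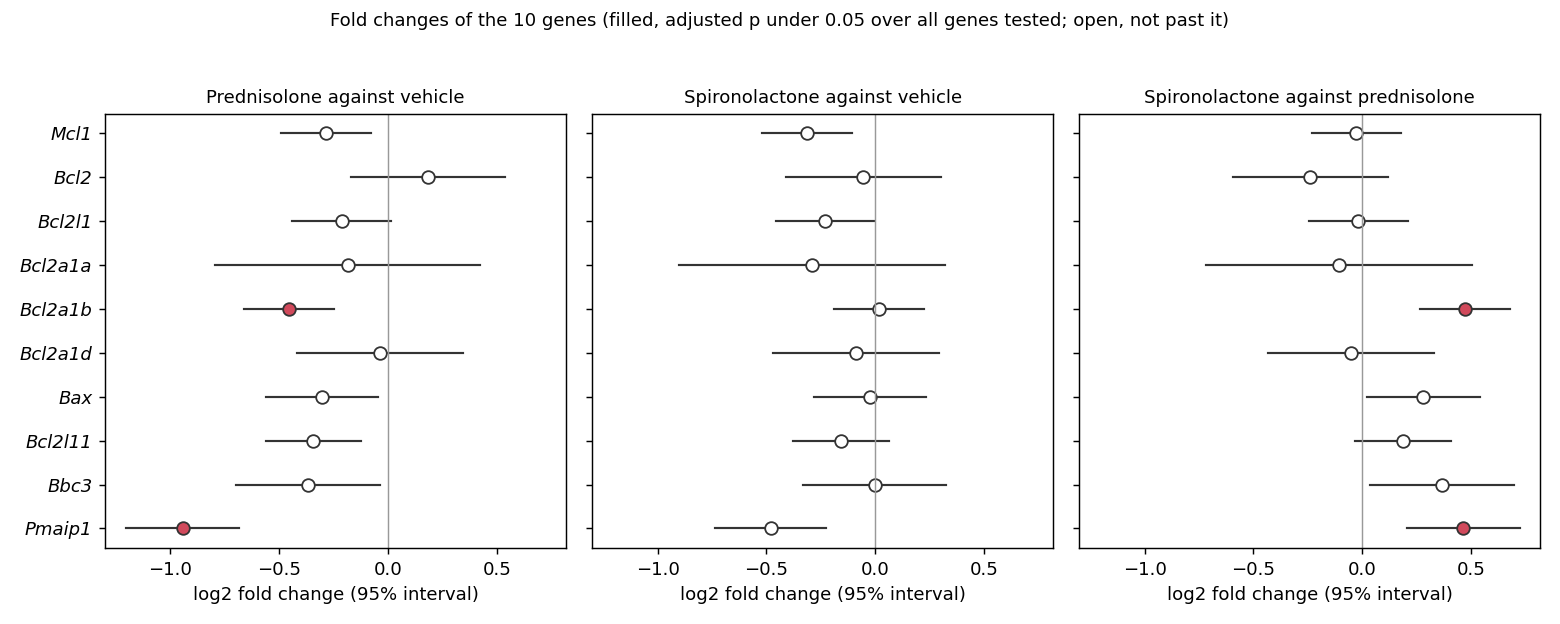
Log2 fold changes of the 10 genes with 95% intervals in the 3 comparisons, with filled points at an adjusted *P* under 0.05 over all genes tested. Filled points are *Pmaip1* and *Bcl2a1b* in the prednisolone against vehicle panel (-0.94 and -0.45) and in the spironolactone against prednisolone panel (0.46 and 0.47).

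Among the anti-apoptotic genes, *Mcl1* (chr3:95566026-95570487) gave 978, 1032, and 1052 CPM in the vehicle libraries. It gave 780.0, 871, and 816 CPM with spironolactone and 883, 879.9, and 750.0 CPM with prednisolone. Both drugs therefore had all libraries below all vehicle libraries, and they overlapped with each other. The log2 fold change was -0.31 ± 0.10 (SE) for spironolactone (unadjusted *P* = 0.00600, adjusted *P* = 0.274) and -0.29 ± 0.10 with prednisolone (unadjusted *P* = 0.0103, adjusted *P* = 0.174), neither past the threshold. Between the drugs the difference was -0.03, with a 95% interval from -0.23 to 0.18. With DESeq2 both comparisons with vehicle passed, at adjusted *P* = 0.0343 and 0.0455, the lowest values over the alternative tools and settings, the highest being 0.334 and 0.255.

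*Bcl2l1*, which encodes BCL-xL (chr2:152622582-152673655), was tightly grouped in vehicle at 129.5, 129, and 132 CPM. Spironolactone libraries were at 119, 97.5, and 116 CPM, and prednisolone libraries at 128, 99.5, and 109.8 CPM. All 6 treated libraries were below the vehicle libraries, although prednisolone replicate 1 was so by less than 1 CPM. In TPM that library, at 114, was above vehicle replicates 2 and 3, at 108 and 110.0, so the separation with prednisolone held in CPM only. The log2 fold change was -0.23 ± 0.11 for spironolactone (adjusted *P* = 0.532) and -0.21 ± 0.11 for prednisolone (adjusted *P* = 0.392).

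*Bcl2* (chr1:106465908-106642060) was the only member with every prednisolone library above every vehicle library. It was at 11.4, 10.1, and 11.4 CPM in vehicle and 12.1, 12.6, and 12.6 CPM with prednisolone, while the spironolactone libraries spread from 7.95 to 13.3 CPM across both. The log2 fold change with prednisolone was 0.18, with a 95% interval from -0.17 to 0.54 and an adjusted *P* of 0.680, so the difference did not hold up against the replicate error. *Bcl2* overlaps 3 annotated genes on the opposite strand, *Bcl2l11* overlaps 2, and *Bcl2l1*, *Bcl2a1b*, *Bcl2a1d*, and *Bax* overlap 1 each. Whether the counting used strand is not given in the sources used here, and without strand the reads of such partners cannot be told apart. Overlaps on the same strand, which affect counting under any strand setting, were annotated for *Bcl2* (2 genes), *Bcl2l11* (1), *Bax* (1, *Gm45808*), and *Bcl2a1b* (1, *Gm29094*).

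*Bcl2a1b* was the only one of the anti-apoptotic members called by edgeR with all 9 libraries. Its vehicle libraries were at 81.2, 76.3, and 76.0 CPM, and its spironolactone libraries at 68.8, 78.5, and 89.2 CPM. The prednisolone libraries lay close together at 56.6, 57.9, and 56.0 CPM, below all 6 others. The log2 fold change with prednisolone was -0.45 ± 0.10 (adjusted *P* = 0.0296), and spironolactone was higher than prednisolone by 0.47 ± 0.10 (adjusted *P* = 0.0149). Neither call remained when the near-identical copies were summed (adjusted *P* = 0.1101 and 0.0772). Against vehicle, spironolactone differed by 0.02, with a 95% interval from -0.19 to 0.22.

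The other copies did not show this pattern. *Bcl2a1d* was at 13.5, 19.9, and 20.1 CPM in vehicle, 12.7, 20.4, and 17.1 CPM with spironolactone, and 17.3, 18, and 16.8 CPM with prednisolone. *Bcl2a1a* was the lowest copy, from 6.36 to 8.67 CPM in vehicle, 3.26 to 8.73 CPM with spironolactone, and 6.18 to 7.58 CPM with prednisolone. All groups overlapped for both genes. The log2 fold changes with prednisolone were -0.04 for *Bcl2a1d* (95% interval -0.42 to 0.34) and -0.18 for *Bcl2a1a* (95% interval -0.79 to 0.42). The second interval includes the value of *Bcl2a1b*, -0.45, and the first ends just short of it. Whether the copies differed from each other in their response was not tested.

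These copies are near identical and lie within chromosome 9 of GRCm39, *Bcl2a1d* at chr9:88605338-88613967 on the minus strand, *Bcl2a1a* at chr9:88838953-88844472 and *Bcl2a1b* at chr9:89081262-89089889 on the plus strand. Their coding sequences have 516 bases each, and the copies differ from one another at 12 of these positions, so that reads from one can be assigned to another. The first 96 coding bases of each, which hold 7 of the 12 positions, show how few bases separate them. Capitals mark the bases that are not the same in all 3 copies.
Bcl2a1a (chr9:88839104-88839199, plus strand): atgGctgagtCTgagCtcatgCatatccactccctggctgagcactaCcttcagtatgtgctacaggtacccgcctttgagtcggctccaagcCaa
Bcl2a1b (chr9:89081413-89081508, plus strand): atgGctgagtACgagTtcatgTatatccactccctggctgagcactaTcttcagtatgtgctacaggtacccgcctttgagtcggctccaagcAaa
Bcl2a1d (chr9:88613677-88613772, minus strand): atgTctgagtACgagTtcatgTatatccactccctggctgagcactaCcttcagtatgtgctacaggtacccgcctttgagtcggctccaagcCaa

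Coding identity was 98.8% between *Bcl2a1b* and *Bcl2a1d*, 98.6% between *Bcl2a1a* and *Bcl2a1d*, and 97.9% between *Bcl2a1a* and *Bcl2a1b*. Only 42.9% of the 50-base windows of the *Bcl2a1b* transcript were absent from the other copies, against 31.0% for *Bcl2a1a* and 20.5% for *Bcl2a1d*. At 150 bases the shares were 85.7%, 71.8%, and 69.5%. Counts on each single copy are therefore uncertain. A further copy, *Bcl2a1c*, had 4 counts over all 9 libraries.

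When the counts of the 3 copies were summed, they came to 3325, 3360, and 3354 in vehicle and 2661, 2732, and 2659 with prednisolone. The spironolactone sums were 2678, 3406, and 3585, with replicate 1 among the prednisolone libraries in these unscaled counts. In CPM the sums were 101, 105, and 105 in vehicle, 84.7, 108, and 114 with spironolactone, and 80.8, 83.5, and 79.0 with prednisolone, so that spironolactone replicate 1 lay just above the prednisolone libraries. Fitted as 1 gene, the summed copies had a log2 fold change of -0.35 with prednisolone (adjusted *P* = 0.1101) and of 0.33 between spironolactone and prednisolone (adjusted *P* = 0.0772), so neither call made for *Bcl2a1b* alone remained. The share of the summed counts on *Bcl2a1b* was 80.3%, 72.8%, and 72.7% in vehicle, 81.2%, 72.9%, and 78.6% with spironolactone, and 70.1%, 69.4%, and 70.9% with prednisolone. The prednisolone shares were below all others. Reads that did not map uniquely made up 6.81% to 8.60% in vehicle, 9.42% to 10.4% with spironolactone, and 7.17% to 9.43% with prednisolone, and their part in the result was not tested.

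**Figure D3:**
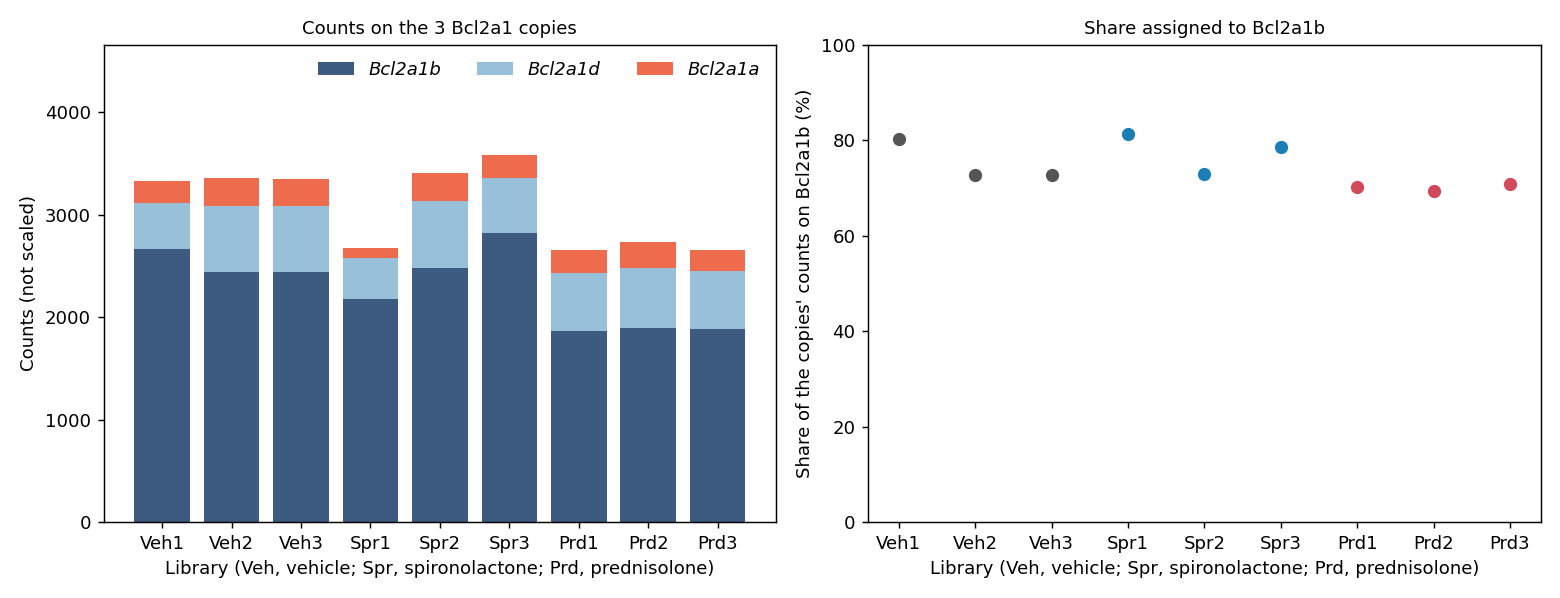
Unscaled counts on *Bcl2a1b*, *Bcl2a1d*, and *Bcl2a1a* in each library (left, stacked bars) and the percent of those counts on *Bcl2a1b* (right, 1 point per library). The prednisolone libraries have sums of 2659 to 2732 counts and *Bcl2a1b* shares of 69.4% to 70.9%.

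Leaving out any single prednisolone library, vehicle replicate 2 or 3, or spironolactone replicate 2 ended the call of *Bcl2a1b* against vehicle, at adjusted *P* from 0.0522 to 0.131, while its log2 fold change stayed between -0.47 and -0.42 over all such fits. The call between the drugs ended without spironolactone replicate 3 or any single prednisolone library, at adjusted *P* from 0.0597 to 0.0698. Neutrophils are known to express these copies, and the summed neutrophil markers were 749 to 968 CPM with prednisolone, 756 to 4813 CPM in vehicle, and 1352 to 3591 CPM with spironolactone. In vehicle, the library with the lowest marker sum (replicate 1) had the highest *Bcl2a1b* level and the lowest *Bcl2a1d* and *Bcl2a1a* levels. In spironolactone replicates 1, 2, and 3 the marker sums were 1352, 1561, and 3591 CPM beside *Bcl2a1b* levels of 68.8, 78.5, and 89.2 CPM. The part of neutrophils in the *Bcl2a1b* result was not tested.

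The 250 bases before the annotated start of *Bcl2a1b* are shown because all 3 copies match a loose AP-1 pattern there. This pattern, TGANTCA, allows any middle base, which is A in the *Bcl2a1b* match. The AP-1 subunit genes *Jun* and *Junb* fell in the prednisolone libraries, and any link of AP-1 to the levels of the copies was not tested. Searched on both strands, the pattern was in 6.15% of the windows of 21561 protein-coding genes and in 3 of the 10 members. These 3 are the near-identical copies, so they do not count as separate cases. The match began 100 bases before the start in *Bcl2a1b* and 50 bases before it in *Bcl2a1d*. Capitals mark the match in *Bcl2a1b*.
Bcl2a1b upstream (chr9:89081012-89081261, plus strand): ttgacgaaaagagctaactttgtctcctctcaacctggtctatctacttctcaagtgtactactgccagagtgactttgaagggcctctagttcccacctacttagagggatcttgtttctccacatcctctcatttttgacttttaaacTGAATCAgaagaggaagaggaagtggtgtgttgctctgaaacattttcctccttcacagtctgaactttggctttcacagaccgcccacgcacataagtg

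The same window of *Bcl2a1a* differed from it only by C31T and C239T, counted from the 5′ end of the window with the base of *Bcl2a1b* first, and its match was at the same place, 100 bases before the start. A simplified kappaB pattern, read as GGG, any 2 bases, and TTTCC on either strand, was in 1.47% of all windows. Among the members it was in *Mcl1* alone, on the strand opposite to the gene. It is shown in capitals with its flanks.
Mcl1 upstream (chr3:95565994-95566023, plus strand): ccagccctccGGAAACGCCCgcccctttcc

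A glucocorticoid response motif, read as AGNACA and TGTNCT set 3 bases apart, was in 0.0278% of all windows and in 0 of the 10 members. A match is a description of letters and not a bound site, and a window without one says nothing of the factor. Members of the NF-kappaB system were measured beside *Mcl1*. Of 9 genes of its subunits and inhibitors, 0 were called in any of the 3 comparisons by the edgeR fit of all 9 libraries or by limma-voom. DESeq2 called 2 as lower with spironolactone against vehicle, *Nfkbie* and *Tnfaip3*, and *Nfkb2* between the drugs. At an unadjusted *P* under 0.05 in edgeR, 1 of the 9 was lower with prednisolone against vehicle, beside 14.2% of all genes. With spironolactone against vehicle 4 were lower, beside 9.29% of all genes. Between the drugs 1 was higher and 3 were lower with spironolactone, beside 22.5% of all genes. The smallest *P* values belonged to *Nfkbib* with prednisolone (-0.32, adjusted *P* = 0.161), *Nfkbie* with spironolactone (-0.57, adjusted *P* = 0.164), and *Nfkb2* between the drugs (-0.36, adjusted *P* = 0.0550).

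Among the pro-apoptotic genes, the effector *Bax* (chr7:45111015-45116325) was at 74.65, 105, and 100.2 CPM in vehicle. It was at 87.4, 86.8, and 101 CPM with spironolactone and 79.8, 70.7, and 76.1 CPM with prednisolone. Vehicle replicate 1 lay among the prednisolone libraries, apart from the other vehicle libraries. Prednisolone was lower than vehicle, with a log2 fold change of -0.30 ± 0.12 (unadjusted *P* = 0.0239, adjusted *P* = 0.255), and spironolactone was higher than prednisolone by 0.28 ± 0.12 (adjusted *P* = 0.181). Without vehicle replicate 1 the prednisolone difference passed the threshold at -0.44 (adjusted *P* = 0.0139), as did that between the drugs (adjusted *P* = 0.0433). Between the drugs the log2 fold change was 0.20 to 0.32 over the 9 fits that left out a library.

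Of the BH3-only genes, *Bcl2l11*, which encodes BIM (chr2:127967958-128004476), was at 102, 97.6, and 85.7 CPM in vehicle, 89.6, 92.4, and 73.9 CPM with spironolactone, and 75.6, 70.7, and 78.5 CPM with prednisolone. All prednisolone libraries were below all vehicle libraries in CPM, and the spironolactone libraries overlapped with both groups. In TPM the highest prednisolone library, 36.6, was just above the lowest vehicle library, 36.2. The log2 fold change with prednisolone was -0.34 ± 0.10 (unadjusted *P* = 0.00490, adjusted *P* = 0.120) and with spironolactone -0.16 ± 0.10 (adjusted *P* = 0.694).

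*Bbc3*, which encodes PUMA (chr7:16042318-16052130), was at 15.9, 22.2, and 15.3 CPM in vehicle, 19.0, 16.3, and 18.02 CPM with spironolactone, and 11.7, 15.4, and 14.3 CPM with prednisolone. In CPM the prednisolone libraries were below all spironolactone libraries and overlapped with vehicle at a single pair of values. In TPM prednisolone replicate 2, at 15.33, was above spironolactone replicate 2, at 14.79. Prednisolone replicates 2 and 3, at 15.33 and 14.07 TPM, were also above vehicle replicate 3, at 13.66 TPM. Prednisolone differed from vehicle by -0.37 ± 0.15 (adjusted *P* = 0.289) and spironolactone from prednisolone by 0.37 ± 0.15 (adjusted *P* = 0.177). Between spironolactone and vehicle the difference was 0.00, with a 95% interval from -0.33 to 0.33.

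*Pmaip1*, which encodes NOXA (chr18:66591604-66598636), showed the largest change of the 10. The vehicle libraries were at 42.8, 47.5, and 48.4 CPM, the spironolactone libraries at 28.5, 32.9, and 38.0 CPM, and the prednisolone libraries at 27.3, 23.1, and 21.7 CPM. No library of one group overlapped with another, with vehicle highest, spironolactone between, and prednisolone lowest. Prednisolone lowered *Pmaip1* with a log2 fold change of -0.94 ± 0.12 (unadjusted *P* = 1.98e-06, adjusted *P* = 0.00193), rank 17 of the genes tested. With spironolactone it was -0.48 ± 0.12 (unadjusted *P* = 0.00131, adjusted *P* = 0.166), rank 128, which did not pass.

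Spironolactone was higher than prednisolone in *Pmaip1* by 0.46 ± 0.12 (adjusted *P* = 0.0416). The prednisolone call held in all 9 fits that left out a library, with adjusted *P* from 0.000555 to 0.0225. The difference between the drugs passed in 3 of those 9 fits and in all other alternatives but limma-voom (adjusted *P* = 0.0550). It did not pass without vehicle replicate 2, spironolactone replicate 2 or 3, or any single prednisolone library, with adjusted *P* from 0.0511 to 0.173. The spironolactone difference from vehicle was called by DESeq2 (adjusted *P* = 0.0241) and without the filter on low counts (adjusted *P* = 0.00548), and in 0 of the 9 fits that left out a library.

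**Figure D4:**
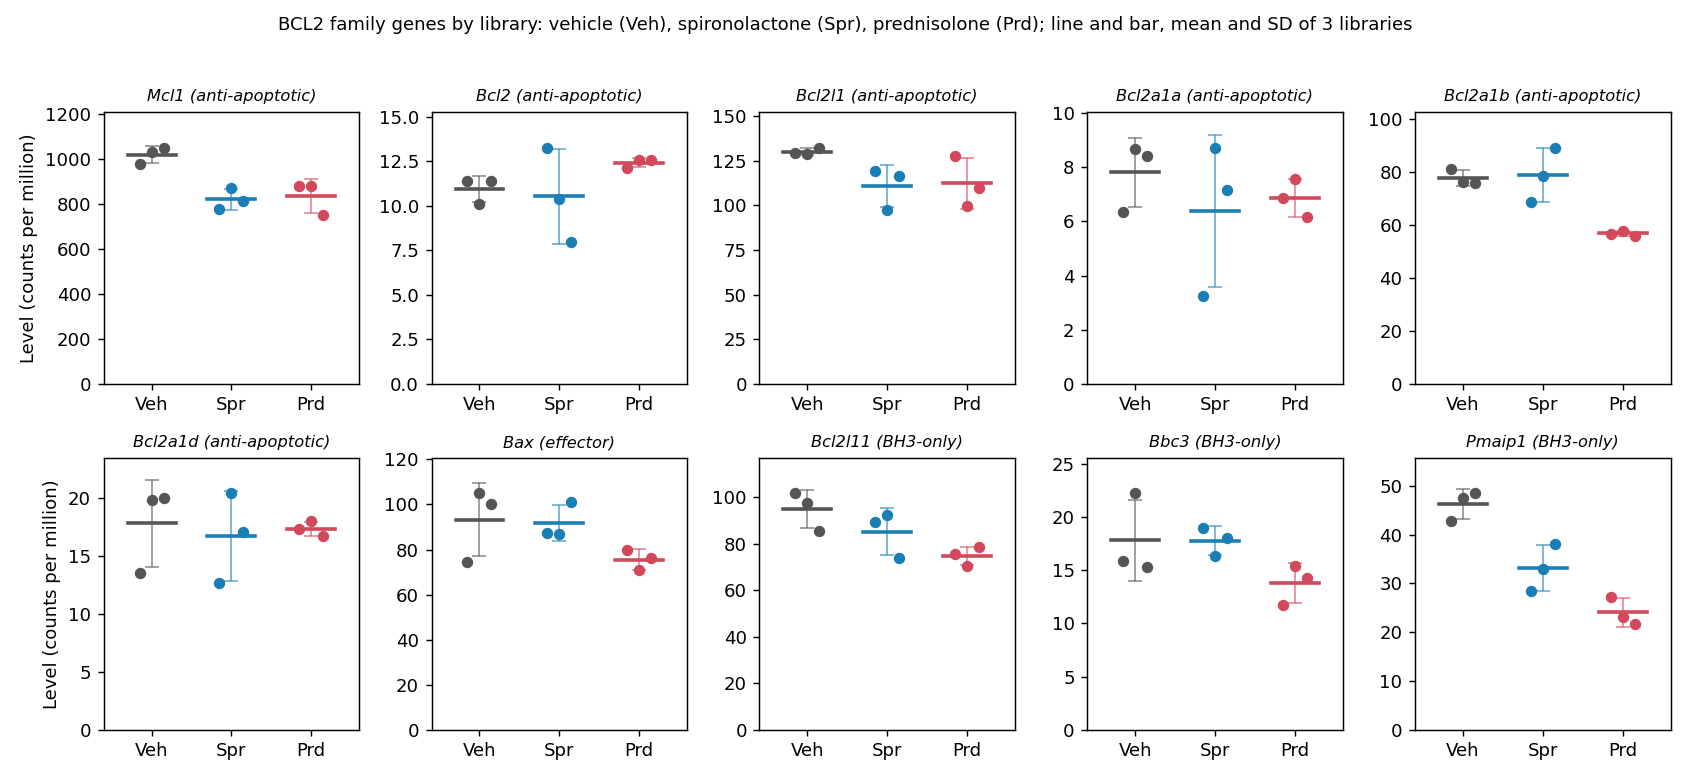
CPM of each of the 10 genes in the 9 libraries, 1 panel per gene with its own axis from 0, with points for libraries and lines and bars for the mean and SD of 3 libraries. *Pmaip1* separates all 3 groups, from 21.7 to 48.4 CPM, and the *Bcl2a1b* prednisolone points sit at 56.0 to 57.9 CPM below all others.

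Some immediate early and heat shock genes, which rise when tissue is dissociated, differed between the same groups as *Pmaip1*. Of 8 such genes, 4 fell with prednisolone against vehicle (*Atf3*, *Junb*, *Hspa1a*, and *Hspa1b*), 0 were called by edgeR with spironolactone against vehicle (4 at an unadjusted *P* under 0.05, all lower, of which DESeq2 called 1, *Fos*), and 3 (*Atf3*, *Hspa1a*, and *Hspa1b*) were higher with spironolactone than with prednisolone. Their summed levels were 6707 to 7045 CPM in vehicle, 5413 to 5805 CPM with spironolactone, and 3735 to 5293 CPM with prednisolone, without overlap. The genes were not alike, since *Egr1* was at -0.05 with prednisolone (adjusted *P* = 0.949), and with spironolactone *Hspa1a* was at 0.10 (adjusted *P* = 0.826) and *Hspa1b* at 0.19 (adjusted *P* = 0.572), the latter with every library above every vehicle library. *Atf3*, a stress transcription factor, fell with prednisolone with a log2 fold change of -1.07 ± 0.16 (adjusted *P* = 0.00455), and its libraries were at 712, 666, and 656 CPM in vehicle, 567, 445, and 481 CPM with spironolactone, and 404.5, 318, and 244 CPM with prednisolone. The part of these genes in the *Pmaip1* result was not tested.

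**Figure D5:**
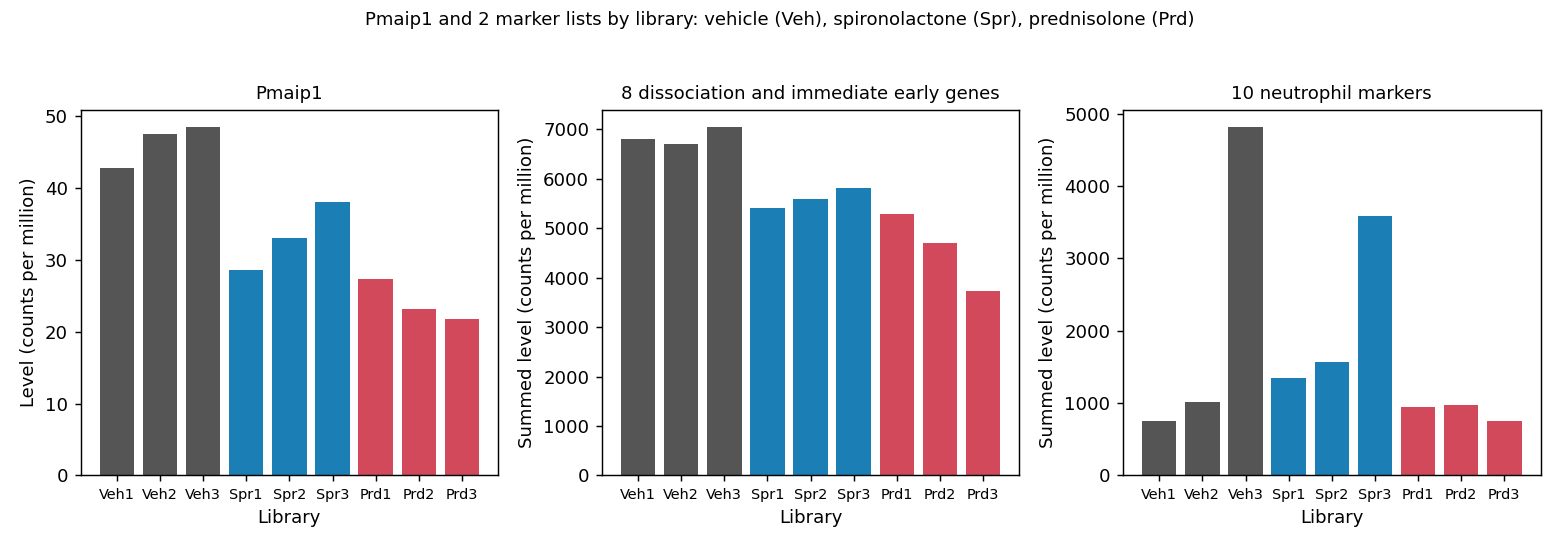
*Pmaip1* (left), the summed 8 dissociation and immediate early genes (middle), and the summed 10 neutrophil markers (right) in CPM, with 1 bar per library. *Pmaip1* and the immediate early sum separate the groups in the same order, while the neutrophil sum varies within vehicle from 756 to 4813 CPM.

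The genes whose log2 levels over the 9 libraries were most like those of *Pmaip1*, among 8659 genes with at least 10 CPM on average, were *Rraga* (Pearson's r = 0.976), *Cebpb* (0.973), and *Tagap* (0.972). The points share libraries and group differences, and the values are descriptions.

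The p53 list held 15 genes, p53, a known regulator of BH3-only genes, and its target genes. It had 1 call with prednisolone, *Gtse1*, which is also a gene of dividing cells and was higher by 0.65 (adjusted *P* = 0.0313). The p53 list had 0 calls in both other edgeR comparisons, with 3 genes at an unadjusted *P* under 0.05 for spironolactone against vehicle and 6 between the drugs, while DESeq2 called *Mdm2* in both and *Gtse1* between the drugs. *Mdm2*, a target and inhibitor of p53, had the smallest *P* in the list with spironolactone, at -0.40 (adjusted *P* = 0.129). In the list of 11 FOXO and stress regulators, *Jun* fell with prednisolone, with a log2 fold change of -1.06 ± 0.16 (adjusted *P* = 0.00661), and was higher with spironolactone than with prednisolone by 0.84 (adjusted *P* = 0.0125). *Trib3*, a stress-induced pseudokinase, was lower with spironolactone than with prednisolone, with a log2 fold change of -1.19 (adjusted *P* = 0.0499) at a mean level of 0.928 against 2.12 CPM.

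Of 10 symbols listed for MCL1 protein turnover, 9 were in the files, the other being an older symbol of 1 of them, and 1 gene was higher with prednisolone, *Ube2c*, a mitotic ubiquitin-conjugating enzyme, by 0.78 ± 0.13 (adjusted *P* = 0.00767). *Ube2c* (-0.48, adjusted *P* = 0.0411) and *Usp9x*, a deubiquitinase that spares MCL1 (-0.54, adjusted *P* = 0.0247), were both lower with spironolactone than with prednisolone, and 0 were called with spironolactone against vehicle by edgeR (3 at an unadjusted *P* under 0.05), DESeq2, or limma-voom. The cycling markers *Ccnb1*, *Plk1*, and *Top2a* moved with *Ube2c*, and the 6 cycling markers summed to 500.0 to 562 CPM with prednisolone, 314 to 358 CPM with spironolactone, and 243 to 409 CPM in vehicle. The part of cycling cells in these values was not tested.

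The rest of the BCL2 family was measured beside the 10. Of 13 further family genes, 9 could be tested, and 0 were called in any of the 3 comparisons by the edgeR fit of all 9 libraries, by DESeq2, or by limma-voom. At an unadjusted *P* under 0.05 there were 0 with prednisolone, 0 with spironolactone, and 1, *Bmf*, between the drugs. *Bak1*, the other effector, was at 203, 203, and 199 CPM in vehicle, 195, 196, and 207.5 CPM with spironolactone, and 221, 208.5, and 214 CPM with prednisolone. Its log2 fold change with prednisolone was 0.09, with a 95% interval from -0.08 to 0.26. *Bmf*, a BH3-only gene, was at 19.8, 22.8, and 21.0 CPM with spironolactone and 12.45, 15.3, and 17.7 CPM with prednisolone, a difference of 0.49 ± 0.17 (adjusted *P* = 0.1095), which was called by the edgeR fits of these 2 groups alone and without the filter on low counts. *Bcl2l10* was at 0 counts in every library, and *Bik*, *Hrk*, and *Bcl2l15* were below the filter.

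Downstream of the mitochondrion, 0 of 15 genes of the apoptosome and the caspases were called in any comparison by edgeR, DESeq2, or limma-voom. At an unadjusted *P* under 0.05 there was 1 with prednisolone, *Htra2*, a mitochondrial protease (-0.24, adjusted *P* = 0.288), 0 with spironolactone, and 1 between the drugs, also *Htra2* (0.22, adjusted *P* = 0.210). The 15 genes summed to 799.7 to 878 CPM in vehicle, 791 to 841.5 CPM with spironolactone, and 826.5 to 861.5 CPM with prednisolone. Of 12 inhibitor of apoptosis and death receptor genes, 0 were called in any comparison by the edgeR fit of all 9 libraries or by limma-voom, with 2 at an unadjusted *P* under 0.05 in each by edgeR. DESeq2 called 2 as lower for spironolactone against vehicle, *Cflar* and *Birc3*. *Cflar*, which encodes the caspase-8 inhibitor FLIP, had the smallest *P* of this list with spironolactone, at -0.44 ± 0.10 (adjusted *P* = 0.152), and was called also by edgeR without the filter on low counts. That unfiltered fit, the replicate block, and the fit without vehicle replicate 1 called *Birc6* between the drugs. The *Cflar* libraries were at 76.8, 77.1, and 63.0 CPM with spironolactone, below the 92.7 to 108 CPM of vehicle.

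Ratios of survival to death transcripts, on the scale of summed exon length, are given as descriptions. The TPM ratio of *Mcl1* to *Bax* was 6.97, 5.23, and 5.58 in vehicle, 4.74, 5.34, and 4.29 with spironolactone, and 5.88, 6.61, and 5.24 with prednisolone, with overlap of all groups. The TPM ratio of *Pmaip1* to *Mcl1* was 0.0559, 0.0588, and 0.0588 in vehicle, 0.0467, 0.0483, and 0.0595 with spironolactone, and 0.0395, 0.0335, and 0.0370 with prednisolone. Prednisolone was below both other groups in this ratio, while spironolactone replicate 3 exceeded the vehicle libraries. The ratio of *Bcl2* to *Bax* was 0.0194 to 0.0307 in vehicle, 0.0158 to 0.0306 with spironolactone, and 0.0306 to 0.0358 with prednisolone.

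Summed over the 10 members, levels were 1455, 1548, and 1550.0 CPM in vehicle, 1222, 1315, and 1285 CPM with spironolactone, and 1298, 1255, and 1142 CPM with prednisolone. *Mcl1* makes up most of this sum, and both drug groups lay below vehicle.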

How the data were processed

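RNA of the 9 sorted pools was sequenced by the DNBseq method. The authors made the deposited counts, whole numbers per gene without normalization, by alignment to mm39. The submitters' processing notes name HISAT2 2.2.1, HTSeq 0.11.3, and DESeq2 1.32.0, and the annotation release and strand setting are not given in the sources used here. Deposited tables of the authors' own comparisons (log2 fold changes and *P* values) were not used. Lines naming no gene, 17.2% to 21.8% of each library's total, were left out.

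Genes were tested with edgeR 4.0.16 in R 4.3.3 (TMM scaling, filterByExpr with a minimum count of 10 and a minimum total of 15, robust quasi-likelihood fit, two-sided) over all 9 libraries in 1 fit, with Benjamini-Hochberg adjustment over 16618 genes and a threshold of 0.05. SE was the absolute log2 fold change divided by the square root of F, and the 95% intervals used the t distribution of the fit. The fit was tested on simulated data before use. Samples within a group differed by more than sampling noise, with chi-square per degree of freedom from 18.7 to 61.4, so none was a duplicate. TPM used summed exon lengths of GENCODE vM39 on GRCm39, the build of the files, and sequences were read from that genome. Alternatives were DESeq2 1.42.0, limma-voom (limma 3.58.1), other scalings and filters, the non-robust fit, a fit of the 2 groups alone, a replicate block, the summed *Bcl2a1* copies, leaving out each library, and, for TPM, canonical transcript lengths.

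All 10 members were named. From the other lists, genes past the threshold and the gene with the smallest *P* were eligible, with others, such as *Bak1*, *Mdm2*, and *Adgre1*, given as background, chosen after their values were seen. The 3 genes most like the leading member were taken by Pearson correlation of log2 CPM. The members and lists were chosen with earlier results of these data known.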

Additional observations from a re-analysis of the deposited data

How the results depend on the processing

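Numbers of genes called depended on the tool and the filter. DESeq2 called 738 genes for prednisolone against vehicle, 293 for spironolactone against vehicle, and 1739 between the drugs, and an edgeR fit without the filter on low counts called 1019, 528, and 1940. For spironolactone against vehicle, limma-voom and the non-robust fit called 0 genes each where the reported fit called 3. A fit of the 2 drug groups alone called 1598 genes between them. Leaving out 1 library gave 69 to 826 genes for prednisolone against vehicle, 0 to 34 for spironolactone against vehicle, and 232 to 1898 between the drugs. The highest count of the first and last range came when vehicle replicate 1 was left out, and the lowest when prednisolone replicate 2 was. Of the 10 members, 1 to 3 were called with prednisolone and 0 to 3 between the drugs when 1 library was left out, with 0 between the drugs without spironolactone replicate 3 or any single prednisolone library. Against vehicle, DESeq2 called 2 members with spironolactone and the unfiltered fit 1 (*Pmaip1*), and limma-voom called 1 between the drugs. Among the other family genes, *Bmf* was called between the drugs (1 of 9) by the fit of the 2 groups alone and the unfiltered fit.

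None of the members whose direction turned was called in that comparison. Their reported differences ranged from near 0 to -0.29 for *Bcl2a1a* with spironolactone against vehicle. For spironolactone against vehicle, *Bbc3* was 0.0172 with limma-voom, 0.00357 with at least 10 counts in every library, and 0.0179 with the replicate block, and the summed copies gave -0.0212 where *Bcl2a1b* was positive. Between the drugs the summed copies gave 0.33 where *Bcl2a1a* and *Bcl2a1d* were negative. Leaving out 1 library gave, for spironolactone against vehicle, -0.25 to 0.11 for *Bcl2*, -0.59 to 0.0238 for *Bcl2a1a*, -0.0804 to 0.11 for *Bcl2a1b*, -0.26 to 0.0756 for *Bcl2a1d*, -0.16 to 0.0701 for *Bax*, and -0.10 to 0.19 for *Bbc3*. For prednisolone against vehicle it gave -0.20 to 0.0604 for *Bcl2a1d*. Between the drugs it gave -0.10 to 0.0120 for *Mcl1*, -0.10 to 0.0839 for *Bcl2l1*, -0.40 to 0.21 for *Bcl2a1a*, and -0.22 to 0.11 for *Bcl2a1d*. The cause was not tested in any of these. With the replicate block, 8 genes were called for spironolactone against vehicle and 2, 0, and 2 members in the 3 comparisons, as without it. Correlations of same-numbered libraries were -0.08 to 0.23. Differently numbered libraries were not set beside them, so these values cannot decide whether the numbers pair the samples. No scaling moved the median log2 fold change of all genes by more than 0.1. With 3 pools per group, *Bcl2a1a*, at 103 to 278 counts, had an SE of 0.28 on the log2 scale, so that changes smaller than its interval were not detectable.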
